A study of Mus musculus with 8 samples.

Results

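The 10 genes described here encode the carriers that take sugars, small peptides and amino acids out of the intestinal lumen and pass them on to the blood. They were chosen by name, and all 10 of 10 names matched 1 row each among the 55880 genes of the deposited count table. Slc5a1, Slc2a2 and Slc2a5 carry sugars, Slc15a1 carries di- and tripeptides, Slc6a19, Slc7a9, Slc3a1 and Slc1a1 bring amino acids in across the apical membrane, and Slc7a7 with Slc3a2 passes cationic amino acids out across the basolateral membrane. The RNA came from small intestinal crypts of C57BL/6N mice, taken without irradiation per the series title. By label, 4 libraries are miR-29ab1-/- (knockout, KO), lacking the genes of miR-29a and miR-29b-1, and 4 are WT. The sources used here name no age, sex or extent of the deletion, and no Cre or promoter.

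Absorption is the work of mature enterocytes on the villus. Apical sodium- or proton-coupled carriers concentrate glucose, peptides and amino acids in the cell, using the ion gradients across the membrane, and basolateral carriers let them out. Crypts hold stem cells, dividing progenitors and Paneth cells, and carrier genes are switched on as cells leave the crypt and mature. Some carriers consist of a heavy chain and a light chain: Slc3a1 pairs with Slc7a9, and Slc3a2 pairs with Slc7a7. In humans, loss of SLC3A1 or SLC7A9 causes cystinuria, loss of SLC6A19 causes Hartnup disorder, and loss of SLC5A1 causes glucose-galactose malabsorption.

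The microRNAs that the label names as deleted share 1 seed, the stretch that pairs with target transcripts. It is shown here because the longest annotated 3′ UTR of each carrier was searched for its 7-base complement. The same seed is in miR-29c-3p and in the miR-29b-3p of Mir29b-2, whose genes lie on chromosome 1, outside the genes that the label names. In the RefSeq mature sequences (GRCm38.p6), the seed is in capitals.
mmu-miR-29a-3p, chr6:31062673-31062694, minus strand: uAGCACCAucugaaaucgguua
mmu-miR-29b-3p, chr6:31063025-31063047, minus strand: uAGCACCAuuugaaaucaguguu
Slc5a1 and Slc2a2 each held 2 complements, TGGTGCT, and the other 8 carriers held none. That is 2 of 10 carriers, against 1919 of 12386 genes searched (15.5%). The windows below are read 5′ to 3′ from GENCODE M21 transcripts, with the complement in capitals.
Slc5a1 3′ UTR, bases 897 to 903 of 1868: tctctgcctcgTGGTGCTgatgttgacaca
Slc5a1 3′ UTR, bases 1731 to 1737 of 1868: atggactatctTGGTGCTtgtaggagaaga
Slc2a2 3′ UTR, bases 2295 to 2301 of 3883: cttggatggagTGGTGCTtcctccatagtc
Slc2a2 3′ UTR, bases 3825 to 3831 of 3883: ttctgaatgatTGGTGCTgctgctgtttat
A match of letters is a description of the transcript and was not measured as a binding site. The 3′ UTRs searched ran from 141 bases in Slc7a9 to 3883 bases in Slc2a2, so the carriers did not offer equal lengths to the search.

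The libraries held 13879472 to 17368666 counts each. Mir29a was at 0 counts throughout, whereas Mir29b-1 gave 2 to 7 counts per library under the knockout label and 0 under the WT label. Gm27019 and Lncpint, annotated beside Mir29b-1 on the same strand of chromosome 6, gave 227 to 327 and 1831 to 2608 counts per library under the knockout label, against 0 and 11 to 16 under the WT label. The Mir29b-1 counts go against the knockout label taken at face value, and mature microRNAs are not measured here, so groups are named by label throughout. Crypt markers were present in every library, with the stem cell gene Olfm4 at 283 to 857 FPKM in the libraries labelled knockout and 509 to 972 FPKM in the WT libraries. Markers of absorptive enterocytes were also high in every library, with a sum of at least 10115 CPM. Labelled knockout replicate 4 stood apart from the other libraries in cell type markers, given below beside the carriers. No litter, culture, day or batch is named, so p-values measure only the spread between these 8 libraries, which may be technical in part.

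By level per length, Slc5a1, the sodium-glucose carrier of the brush border, led the carriers at 593 ± 369.7 FPKM (SD, n = 8 libraries). Slc6a19, the main apical carrier of neutral amino acids, followed at 179 ± 164 FPKM, and Slc15a1, the proton-coupled peptide carrier, at 141 ± 109 FPKM. Slc5a1 lay above Slc6a19 in 8 of 8 libraries, Slc6a19 above Slc15a1 in 8 of 8, and Slc15a1 above the next gene in 7 of 8. The middle of the order was not separated beyond the spread of the libraries. Slc3a2 averaged 86.2 ± 26.4 FPKM, Slc7a9 81.6 ± 47.0, Slc3a1 81.4 ± 68.8 and Slc7a7 65.3 ± 30.7, and neighbours among these 4 kept their order in only 4 to 6 of 8 libraries. Slc2a2, the carrier that lets sugars out to the blood, averaged 44.8 ± 27.3 FPKM, and Slc2a5, the apical fructose carrier, 34.7 ± 16.8 FPKM. Slc1a1, a glutamate and aspartate carrier, was lowest at 7.42 ± 1.65 FPKM and lay under Slc2a5 in 8 of 8 libraries. Counts behind these levels ran from 581 for Slc1a1 to 70967 for Slc5a1 in a single library.

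**Figure D1:**
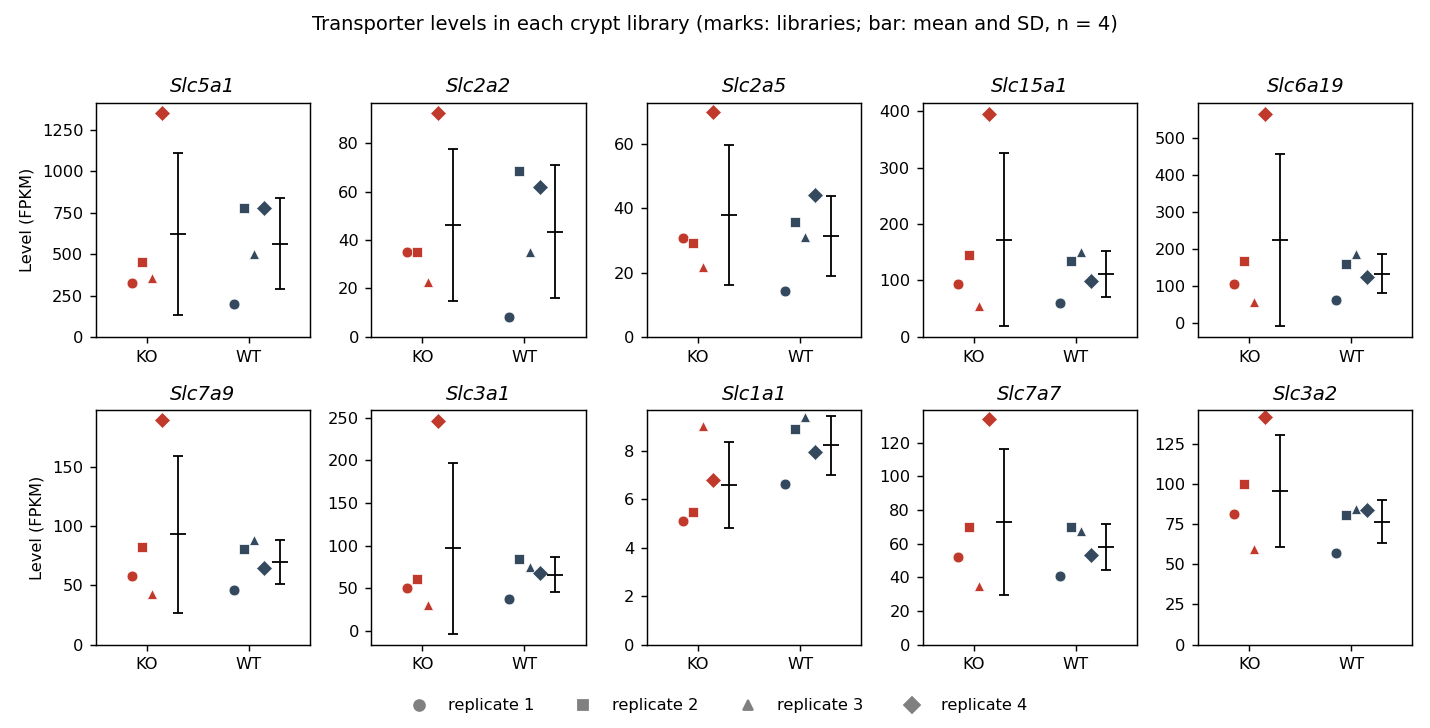
Level of each carrier in FPKM (vertical axes, starting at 0 or just below) in the 4 libraries labelled knockout (red, left) and the 4 WT libraries (dark, right). Marks are libraries, with shape for the replicate number, and bars are the mean and SD. Replicate 4 of the group labelled knockout is highest in 9 of the 10 panels, and the groups overlap in all 10.

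The comparison of the groups asked whether carrier transcripts differed with the label. Of the 10 carriers, 0 passed an adjusted p of 0.05 over the 14897 genes tested (edgeR quasi-likelihood test), where 3 genes, 0.0201% of those tested, passed. Those were Lncpint, Gm27019 and Cblif, each higher under the knockout label, and the first 2 lie beside the microRNA genes. At an unadjusted p under 0.05 the count was also 0 of 10, against 2.70% of all genes tested. The groups overlapped for all 10 carriers, in FPKM and in log2 CPM, while they did not overlap in log2 CPM for 1.53% of all genes tested. All 10 passed the filter on low counts. Intervals given below for single carriers are wide, and missing the threshold does not show that levels were equal. By sign, the log2 fold change lay above 0 for 9 carriers and below for 1, with a median of 0.32, against 52.0% above 0 and a median of 0.011 over all genes tested. That median turned to -0.24 without labelled knockout replicate 4, when 1 carrier lay above 0 and 9 below.

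Sugar carriers were the most variable within the WT group. Slc5a1 (ENSMUSG00000011034, chromosome 5, 33104219 to 33162870, plus strand, GRCm38) was at 325, 451, 358 and 1353 FPKM in labelled knockout replicates 1 to 4, against 199, 777, 503 and 778 FPKM in WT replicates 1 to 4. The extremes were 1 library of each group: labelled knockout replicate 4 was 1.74-fold above the next library, and WT replicate 1 was the lowest of all 8. The means were 622 ± 490.4 FPKM in the group labelled knockout and 564 ± 276 FPKM in the WT group (SD, n = 4 each). For Slc5a1 the log2 fold change came to 0.14 (SE 0.56, 95% interval -1.12 to 1.39, edgeR adjusted p = 0.994). The sign turned when single libraries were left out, to -0.57 (SE 0.43) without labelled knockout replicate 4 and -0.15 without WT replicate 1.

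Slc2a2 (chromosome 3, 28697903 to 28731359) was at 35.0, 35.0, 22.6 and 92.4 FPKM in labelled knockout replicates 1 to 4, against 8.27, 68.4, 35.1 and 61.8 FPKM in WT replicates 1 to 4. WT libraries alone spanned 8.27-fold, the widest WT range of any of the 10 carriers, and the group labelled knockout lay inside the WT range except for replicate 4. The log2 fold change was 0.09 (SE 0.62, 95% interval -1.30 to 1.48, edgeR adjusted p = 0.995), and it was -0.49 without labelled knockout replicate 4, -0.26 without WT replicate 1 and -0.01 without WT replicate 3. Slc2a5 (chromosome 4, 150119283 to 150144169) was at 30.8, 29.3, 21.7 and 70.04 FPKM in labelled knockout replicates 1 to 4, against 14.4, 35.9, 31.2 and 44.1 FPKM in WT replicates 1 to 4. The same 2 libraries were again highest and lowest, and the log2 fold change was 0.27 (SE 0.41, 95% interval -0.66 to 1.20, edgeR adjusted p = 0.994), or -0.20 without labelled knockout replicate 4. For Slc5a1 and Slc2a2, the 2 carriers with miR-29 seed complements, the intervals reach a change of over 2-fold in either direction.

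Slc15a1 (chromosome 14, 121459621 to 121505252, minus strand), which takes up the peptides left by protein digestion, was at 93.0, 144, 54.9 and 396 FPKM in labelled knockout replicates 1 to 4, against 59.2, 135, 149.7 and 98.4 FPKM in WT replicates 1 to 4. The highest library, labelled knockout replicate 4, was 2.64-fold above the next, and replicate 3 of the same group was the lowest of all 8. The mean was 172 ± 154 FPKM in the group labelled knockout and 111 ± 40.6 FPKM in the WT group (SD, n = 4 each), a log2 fold change of 0.63 (SE 0.57, 95% interval -0.65 to 1.91, edgeR adjusted p = 0.994). Without labelled knockout replicate 4 it was -0.18 (SE 0.39).

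Slc6a19 (chromosome 13, 73679745 to 73704865, minus strand) had the largest log2 fold change of the 10. Its levels were 105, 167, 57.7 and 567 FPKM in labelled knockout replicates 1 to 4, against 63.6, 161, 186 and 125 FPKM in WT replicates 1 to 4. The highest of these, in labelled knockout replicate 4, lay 5.17-fold above the mean of the other 3 libraries of its group, which was 109.7 ± 54.7 FPKM, and that mean was under the WT mean of 134 ± 53.2 FPKM. The log2 fold change was 0.74 (SE 0.65, 95% interval -0.74 to 2.21, edgeR adjusted p = 0.994), and -0.28 (SE 0.44) without that library.

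The cystine carrier is built from Slc7a9, the transporting light chain (chromosome 7, 35448796 to 35466036), and Slc3a1, its heavy chain (chromosome 17, 85028376 to 85064236). Slc7a9 was at 57.9, 82.5, 42.5 and 190.0 FPKM in labelled knockout replicates 1 to 4, against 45.8, 80.9, 88.2 and 64.8 FPKM in WT replicates 1 to 4. For Slc3a1 the levels were 49.9, 60.9, 30.6 and 246 FPKM in labelled knockout replicates 1 to 4, against 37.2, 84.4, 74.7 and 67.7 FPKM in WT replicates 1 to 4. Both chains were highest in labelled knockout replicate 4 and lowest in replicate 3 of that group, and Slc3a1 lay further out, 5.21-fold above the mean of the other 3 libraries against 3.11-fold for Slc7a9. The log2 fold changes were 0.41 (SE 0.43) for Slc7a9 and 0.55 (SE 0.60) for Slc3a1, both with edgeR adjusted p = 0.994, and -0.19 and -0.48 without labelled knockout replicate 4. Slc3a1 shares part of its span with Prepl on the opposite strand, which had 9193 counts in all against 21741 for Slc3a1. The sources used here do not say whether reads were counted by strand.

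The promoters of the 2 chains are shown because the chains work as 1 carrier. Their shared highest and lowest libraries were also those of Slc15a1, Slc6a19 and Slc7a7. The windows run from 250 bases before to 50 bases after the start in RefSeq (GRCm38.p6), and capitals mark matches on either strand to letters bound by HNF1, HNF4, GATA or CDX factors or to a TATA box.
Slc3a1, chr17:85028097-85028396, plus strand: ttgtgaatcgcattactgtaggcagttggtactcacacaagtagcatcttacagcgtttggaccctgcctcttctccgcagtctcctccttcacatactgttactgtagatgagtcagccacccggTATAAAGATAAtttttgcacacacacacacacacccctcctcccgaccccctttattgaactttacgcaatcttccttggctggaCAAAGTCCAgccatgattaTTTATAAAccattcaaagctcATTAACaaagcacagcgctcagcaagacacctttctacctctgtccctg
Slc7a9, chr7:35448842-35449141, plus strand: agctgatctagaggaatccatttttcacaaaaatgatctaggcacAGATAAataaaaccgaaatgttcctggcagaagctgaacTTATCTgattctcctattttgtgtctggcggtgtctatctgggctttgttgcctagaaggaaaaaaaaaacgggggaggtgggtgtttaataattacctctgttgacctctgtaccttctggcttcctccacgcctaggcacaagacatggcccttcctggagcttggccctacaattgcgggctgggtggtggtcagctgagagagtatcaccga
Slc3a1 held the HNF4 letters, CAAAGTCCA, 39 bases before its start, a match found in 0.475% of the 32851 promoter windows of that length. It also held the HNF1 half-site, GTTAAT, which 7.10% of all windows hold. The GATA letters, also present in Slc3a1, were searched as AGATAA and are in 11.2% of windows. The TATA box was searched as TATAAA and is in 13.6% of windows, and 1 of its matches overlaps the GATA match of Slc3a1. The Slc7a9 window printed held 2 GATA matches, 205 and 166 bases before its start, and no HNF1 or HNF4 match. Slc7a9 has a second, overlapping window, chr7:35448929-35449228, which held 0 matches to any of these letters. Among the 15 promoter windows of the 10 carriers, 2 held the HNF1 half-site, 1 the HNF4 letters, 4 the GATA letters and 0 the CDX letters. Those were searched as TTTATGG, which 2.75% of all windows hold. Windows of 1 gene can overlap each other, so these counts are a description of letters.

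Slc7a7, the light chain that exports cationic amino acids in exchange for neutral ones (chromosome 14, 54369442 to 54417780, minus strand), was at 52.3, 69.9, 34.8 and 134 FPKM in labelled knockout replicates 1 to 4, against 40.8, 70.1, 67.4 and 53.4 FPKM in WT replicates 1 to 4. Slc3a2, its heavy chain and also that of other carriers in many cell types (chromosome 19, 8706882 to 8723369, minus strand), was at 81.3, 100.2, 59.4 and 142 FPKM in labelled knockout replicates 1 to 4, against 57.2, 81.2, 84.7 and 84.2 FPKM in WT replicates 1 to 4. Both were highest in labelled knockout replicate 4, but Slc3a2 by less, 1.41-fold above the next library against 1.91-fold for Slc7a7. The log2 fold changes were 0.32 (SE 0.37, 95% interval -0.52 to 1.17) for Slc7a7 and 0.31 (SE 0.26, 95% interval -0.27 to 0.89) for Slc3a2, both at adjusted p = 0.994 by edgeR. Leaving out labelled knockout replicate 4 gave -0.14 and 0.07. Oxa1l, on the opposite strand, overlaps the span of Slc7a7 and had 9412 counts in all against 26122 for Slc7a7.

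Slc1a1 (chromosome 19, 28835049 to 28913960) was the 1 carrier with a log2 fold change below 0, and its highest library was WT replicate 3. Its levels were 5.12, 5.46, 9.03 and 6.82 FPKM in labelled knockout replicates 1 to 4, against 6.64, 8.92, 9.40 and 7.97 FPKM in WT replicates 1 to 4. In labelled knockout replicate 4 Slc1a1 ranked 5 of 8 from the top, and the whole range was 1.84-fold, the narrowest of the 10 carriers. The means were 6.61 ± 1.77 FPKM in the group labelled knockout and 8.23 ± 1.22 FPKM in the WT group (SD, n = 4 each). The log2 fold change was -0.32 (SE 0.19, 95% interval -0.75 to 0.11, edgeR adjusted p = 0.994), and every fit that omitted 1 library gave a value from -0.51 to -0.22.

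**Figure D2:**
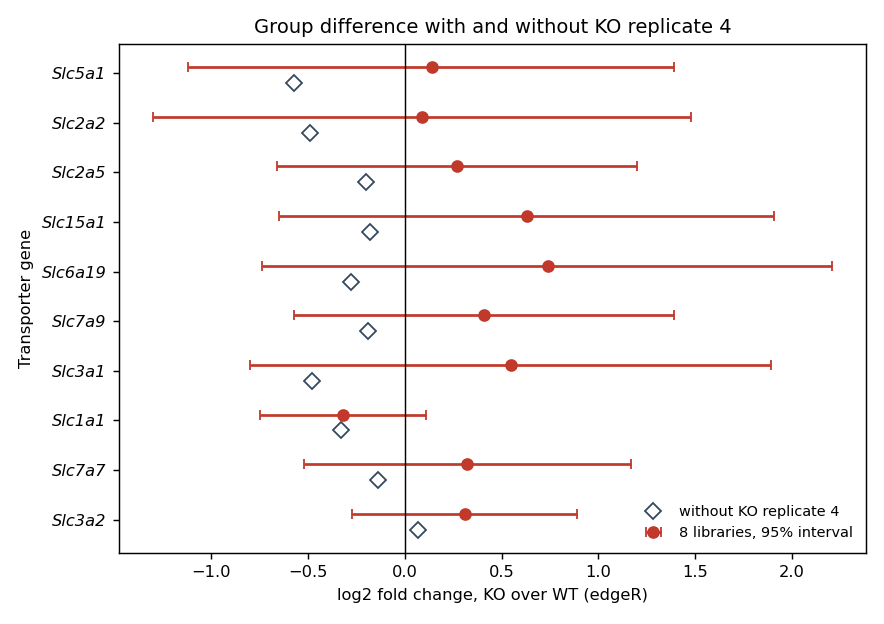
Log2 fold change of each carrier, libraries labelled knockout over WT libraries (horizontal axis), from the edgeR fit. Filled circles with 95% intervals use all 8 libraries and open diamonds leave out labelled knockout replicate 4. All 10 intervals include 0, and without that library 9 of 10 values lie below 0.

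Most carriers had the same libraries at their extremes. Relative to its own mean over 8 libraries on the log2 CPM scale, 9 of 10 carriers were above it in labelled knockout replicate 4, by a median of 1.35, and 0 of 10 in WT replicate 1, with a median of -0.89. In labelled knockout replicate 3 the median was -0.74. That library held the lowest value of 5 carriers, and WT replicate 1 that of 4. Of all genes tested, 26.9% were highest in labelled knockout replicate 4. Slc15a1, Slc6a19, Slc7a9, Slc3a1 and Slc7a7 were lowest in labelled knockout replicate 3, the 3 sugar carriers and Slc3a2 in WT replicate 1, and Slc1a1 in labelled knockout replicate 1. The closest pair of carriers by profile was Slc7a7 and Slc7a9, whose centred log2 CPM differed by 0.112 (root mean square over 8 libraries), followed by Slc15a1 and Slc6a19 at 0.135.

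**Figure D3:**
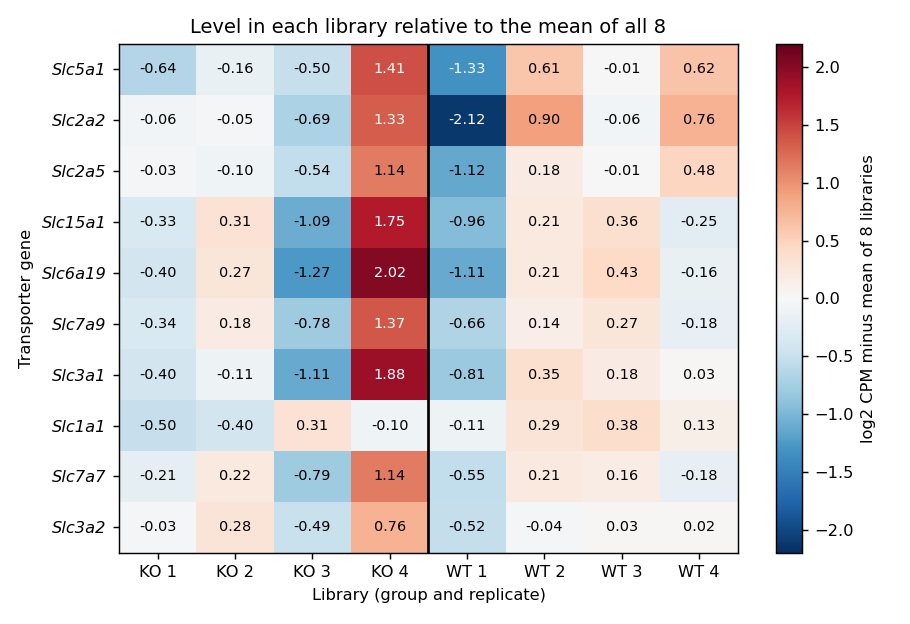
Log2 CPM of each carrier (rows) in each library (columns; labelled knockout left of the line, WT right) minus the mean of that carrier over all 8 libraries. Labelled knockout replicate 4 runs from -0.10 for Slc1a1 to 2.02 for Slc6a19, and the lowest cell is -2.12 for Slc2a2 in WT replicate 1.

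Genes outside the set with the nearest profile to a carrier were sought among 9779 expressed genes over the same 8 libraries. Vil1, the villin of the brush border, was nearest to Slc7a7 at a root mean square difference of 0.0464 on the log2 scale. Sis, the sucrase-isomaltase of the brush border, was nearest to Slc2a2 at 0.402, and Dgat2, a triglyceride synthesis enzyme, to Slc5a1 at 0.168. Cidec, a lipid droplet gene, was nearest to Slc6a19 at 0.209, Unc5b to Slc7a9 at 0.0632, Ccng2 to Slc3a1 at 0.131, Epha1 to Slc2a5 at 0.110 and Cdipt to Slc3a2 at 0.0671. Capn5 was nearest to Slc1a1 at 0.139. These are the smallest distances among many genes and are given as a description.

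Ratios within a library show whether partners kept their proportion. Slc3a1 over Slc7a9 was 0.861, 0.738, 0.721 and 1.29 in FPKM in labelled knockout replicates 1 to 4, against 0.813, 1.04, 0.847 and 1.04 in WT replicates 1 to 4. Slc3a2 over Slc7a7 was 1.55, 1.43, 1.71 and 1.06 in labelled knockout replicates 1 to 4, against 1.40, 1.16, 1.26 and 1.58 in WT replicates 1 to 4. The highest heavy-to-light ratio of the 8 for the apical cystine carrier and the lowest for the basolateral carrier were thus both in labelled knockout replicate 4. On the log2 count scale the group difference was -0.09 for Slc3a1 over Slc7a9 (exact two-sided permutation p = 0.771) and 0.08 for Slc3a2 over Slc7a7 (exact permutation p = 0.629). Slc2a2 over Slc5a1 differed by 0.21 (exact permutation p = 0.600) and Slc2a5 over Slc5a1 by 0.18 (exact permutation p = 0.514). All 4 had adjusted p = 0.771 over the 4 exact permutation tests, where the smallest p that 70 arrangements allow is 0.0286. WT replicate 1 had the lowest Slc2a2 over Slc5a1 ratio, 0.0416, against 0.0630 to 0.108 in the libraries labelled knockout and 0.0698 to 0.0881 in the other WT libraries.

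**Figure D4:**
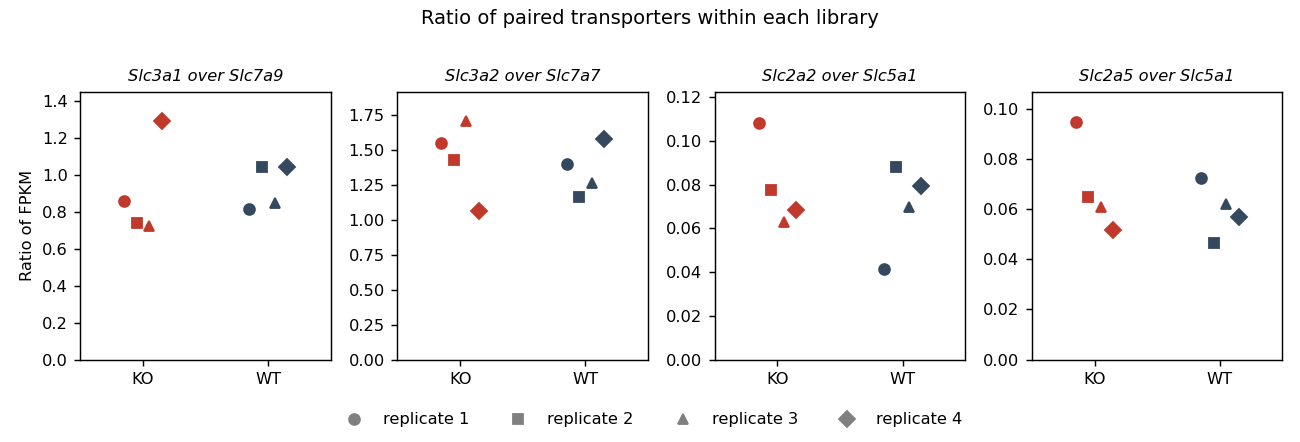
Ratio of FPKM of 4 carrier pairs within each library (vertical axes start at 0), libraries labelled knockout in red on the left and WT libraries in dark on the right, with shape for the replicate number. The groups overlap in all 4 panels, and labelled knockout replicate 4 is at 1.29 for Slc3a1 over Slc7a9, the highest of the 8.

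Markers of absorptive enterocytes had the same highest library as the carriers. Their summed level was 62238 CPM in labelled knockout replicate 4, 10115 to 29310 CPM in the rest of that group and 15383 to 27626 CPM in the WT libraries. All 16 markers were tested and 0 passed the threshold, 15 had a log2 fold change above 0, and their median was 0.42 with all libraries and -0.13 without labelled knockout replicate 4. The sum of stem cell markers was lowest in labelled knockout replicate 4, at 1589 CPM. It was 2833 to 4105 CPM in the rest of that group and 2543 to 4344 CPM in the WT libraries. By gene, Olfm4, Ascl2, Smoc2, Rgmb, Cdca7, Slc12a2 and Sox9 were lowest in labelled knockout replicate 4, but Lgr5, Axin2 and Tnfrsf19 were not. Proliferation markers summed to 533 CPM in that library, 838 to 1294 CPM in the rest of its group and 932 to 1319 CPM in the WT libraries. In bulk RNA, fewer cells of a type and less RNA per cell cannot be told apart, so a level of a carrier per enterocyte is not given by these data. With the enterocyte marker mean as a covariate, 0 of 10 carriers passed, 6 lay above 0 and the median log2 fold change was 0.07. The SE changed unevenly, from 0.65 to 0.14 for Slc6a19 and from 0.62 to 0.52 for Slc2a2, and stayed at 0.19 for Slc1a1. That covariate is itself a mean of transcripts from the same 8 libraries. The part of enterocyte content in the levels was not tested further.

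**Figure D5:**
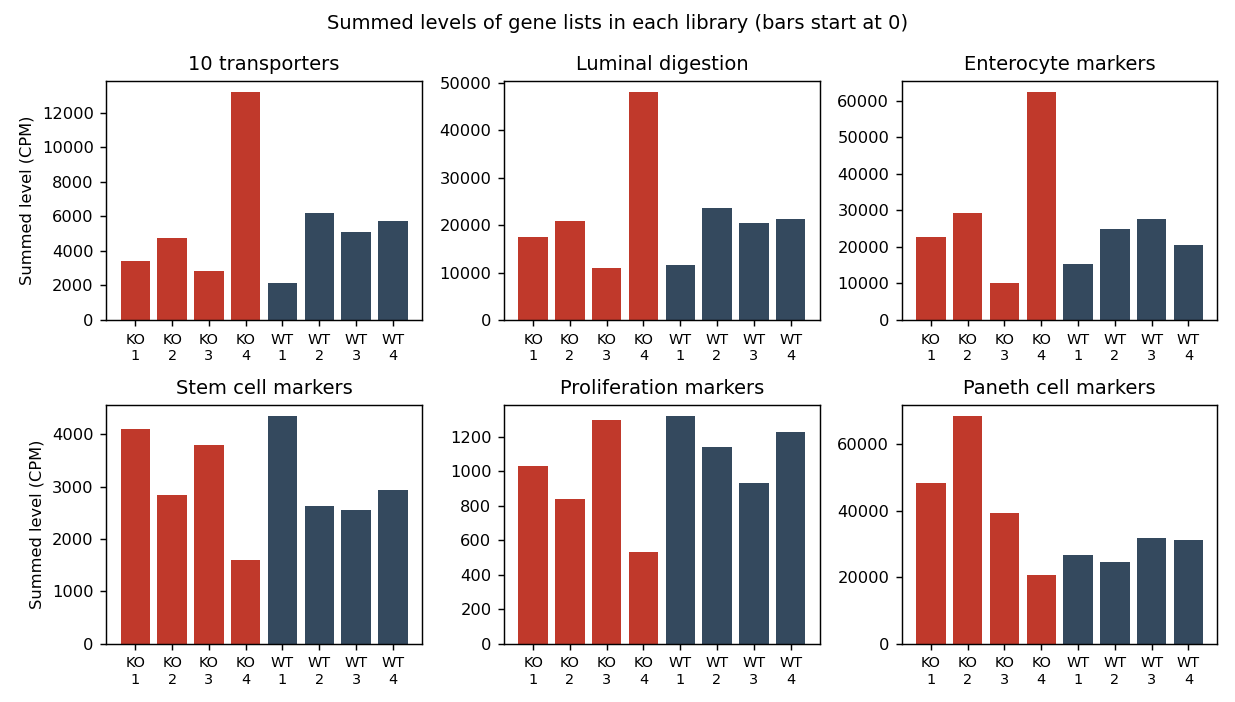
Summed CPM (vertical axes, starting at 0) of the 10 carriers, luminal digestive enzymes and 4 marker lists in each library, labelled knockout in red on the left and WT in dark on the right. Labelled knockout replicate 4 has 13168 CPM of carriers and 62238 CPM of enterocyte markers, the highest of the 8 in both, and the lowest sum of stem cell, proliferation and Paneth cell markers.

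Markers of other cell types differed in which library was highest. Paneth cell markers summed to 20799 to 68499 CPM in the libraries labelled knockout and 24545 to 31798 CPM in the WT libraries. Stromal and muscle markers summed to 13.6 to 24.7 CPM in the libraries labelled knockout and 9.35 to 67.9 CPM in the WT libraries, with 4 of 10 markers expressed enough to test. T cell markers ran from 102 to 210 CPM in the libraries labelled knockout and from 125 to 352 CPM in the WT libraries, with the highest sum in WT replicate 1. Red blood cell markers, like the carriers, were highest in labelled knockout replicate 4, at 55.1 CPM, against 8.90 to 14.3 CPM in the rest of its group and 2.69 to 15.0 CPM in the WT libraries. Goblet cell markers summed to 7736 to 10666 CPM in the libraries labelled knockout and 7092 to 12179.8 CPM in the WT libraries, and tuft cell markers to 81.0 to 248 CPM in the libraries labelled knockout and 63.3 to 367 CPM in the WT libraries. Enteroendocrine markers had sums of 247 to 657 CPM in the libraries labelled knockout and 337 to 531 CPM in the WT libraries. B and plasma cell markers summed to 26.2 to 63.5 CPM in the libraries labelled knockout and 28.5 to 177 CPM in the WT libraries, and myeloid markers to 20.1 to 23.3 CPM in the libraries labelled knockout and 19.9 to 35.8 CPM in the WT libraries. Of all these lists, 0 genes passed the threshold, and their part in the carrier levels was not tested. Genes of the proximal small intestine summed to 1349 to 3799.9 CPM in the libraries labelled knockout and 1471 to 3182 CPM in the WT libraries. Those of the distal small intestine summed to 756 to 3225 CPM in the libraries labelled knockout and 1045 to 2102 CPM in the WT libraries, and Slc10a2, the ileal bile acid carrier, was at 49.2 FPKM in labelled knockout replicate 4 against 0.929 to 2.87 FPKM in the rest of that group and 0.927 to 9.66 FPKM in the WT libraries. Among proximal genes, the log2 fold change was 1.02 (SE 0.32) for Cybrd1, the duodenal ferric reductase, -0.97 (SE 0.71) for Slc40a1, the iron exporter, and -0.89 (SE 0.58) for Gstm3, and among distal genes 1.16 (SE 1.20) for Slc10a2, or -1.74 without labelled knockout replicate 4, 0.23 (SE 0.21) for Nr1h4, the bile acid receptor, and 0.21 (SE 0.39) for Cyp4f14, all with edgeR adjusted p = 0.994. Without that library Nr1h4 was at -0.01 and Cyp4f14 at -0.23. The share of proximal and distal tissue in each library was not tested.

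Enzymes that release the carried sugars and peptides at the brush border had the same highest library. Of 14 digestion genes tested, 0 passed, 12 were above 0, and the median log2 fold change was 0.39, or -0.22 without labelled knockout replicate 4. Their sum was 47995 CPM in that library, 10986 to 20809.9 CPM in the rest of its group and 11598 to 23631 CPM in the WT libraries. Anpep, an aminopeptidase, was at 1112, 1428, 675 and 4084 FPKM in labelled knockout replicates 1 to 4, against 867, 1558, 1550 and 1118 FPKM in WT replicates 1 to 4. Of the genes named by their p, the log2 fold change of Mep1a, a meprin protease, was 0.80 (SE 0.63) and that of Treh, the trehalase, 0.48 (SE 0.43), or -0.19 and 0.06 without labelled knockout replicate 4. Tmprss15, the enteropeptidase that activates trypsinogen, had -3.11 (SE 1.11), all with edgeR adjusted p = 0.994. Tmprss15 was low throughout, at no more than 0.434 FPKM in the libraries labelled knockout. In WT replicates 1 to 4 it was at 0.23, 4.30, 0.36 and 1.80 FPKM, so 1 part of the WT group lay within the labelled knockout range.

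Other sugar carriers included none past the threshold. Of 17 listed, 12 were tested, 0 passed, 9 lay above 0, and the median log2 fold change was 0.30, or 0.06 without labelled knockout replicate 4. Slc2a1, the widely expressed glucose carrier, was at 4.53, 5.95, 5.06 and 3.64 FPKM in labelled knockout replicates 1 to 4, against 5.35, 5.18, 6.59 and 6.57 FPKM in WT replicates 1 to 4. Its log2 fold change was -0.31 (SE 0.17), or -0.19 without labelled knockout replicate 4, and that library, highest for Slc5a1, was lowest for Slc2a1. Slc2a3 had -0.61 (SE 0.31) and Slc2a8 0.31 (SE 0.18), all 3 with edgeR adjusted p = 0.994. Slc2a3 was low throughout, at 0.151 to 0.373 FPKM and 205 counts in all.

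Among the other amino acid and peptide carriers, 27 of 32 were tested, 0 passed, 21 lay above 0 and 6 below, and the median was 0.35, or 0.20 without labelled knockout replicate 4. An unadjusted edgeR p under 0.05 was reached by 4 of those 27, against 2.70% of all genes tested. The same count was 3 of 11 for fructose and ChREBP genes, 2 of 10 for Paneth cell markers and 2 of 6 for B and plasma cell markers. It was 1 each for luminal digestion, the ATF4 response, T cells, red blood cells and the proximal small intestine, and 0 for each of the remaining lists. The log2 fold change of Slc38a3, a glutamine carrier, was 1.91 (SE 0.62), that of Slc43a1, a carrier of branched-chain amino acids, 1.02 (SE 0.36), and that of Slc6a18, a relative of Slc6a19, 2.95 (SE 1.16), all with edgeR adjusted p = 0.994. The highest library was at 0.936 FPKM for Slc38a3 and 1.35 FPKM for Slc43a1. Slc6a18 was at 4.04 FPKM in labelled knockout replicate 4, against 0.148 to 0.218 FPKM in the rest of that group and 0.0544 to 0.240 FPKM in the WT libraries. Without that library its log2 fold change was 0.36, while those of Slc38a3 and Slc43a1 were 2.02 and 1.14. Slc7a5 and Slc7a8, other light chains that pair with Slc3a2, had 0.21 (SE 0.24) and 0.35 (SE 0.22), or 0.32 and 0.17 without labelled knockout replicate 4.

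Partners and the ion gradient had 7 of 9 genes tested and 0 past the threshold, with a median of 0.10, or -0.25 without labelled knockout replicate 4. The log2 fold change of Ap2a1 was -0.12 (SE 0.09) and that of Pdzk1, a brush border scaffold, 0.51 (SE 0.48), with edgeR adjusted p = 0.994, and without that library they were -0.13 and 0.02. Slc9a3, the sodium-proton exchanger that serves Slc15a1, had -0.09 (SE 0.21), or -0.04 without it.

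Genes of fructose use and of the sugar sensor ChREBP (Mlxipl) had 11 tested, 0 past the threshold, 7 above 0 and a median of 0.24, or 0.00 without labelled knockout replicate 4. Pck1, of gluconeogenesis, was at 139, 128, 54.3 and 799 FPKM in labelled knockout replicates 1 to 4, against 41.2, 79.7, 52.2 and 57.6 FPKM in WT replicates 1 to 4, a log2 fold change of 2.27 (SE 0.75), or 0.90 without replicate 4. G6pc, which releases free glucose, had 1.43 (SE 0.58) and Txnip, a glucose-responsive gene, 0.59 (SE 0.26), all 3 with edgeR adjusted p = 0.994. Without that library G6pc was at 0.54 and Txnip at 0.29. The labels give no feeding state. Genes of the amino acid response to ATF4 had 14 tested, 0 past the threshold, 8 above 0 and a median of 0.04, or 0.08 without labelled knockout replicate 4. Ddit4 had 0.46 (SE 0.18), Sesn2 0.24 (SE 0.13) and Phgdh, of serine synthesis, -0.23 (SE 0.19), with edgeR adjusted p = 0.994, and Phgdh was at -0.07 without that library.

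Transcription factors of enterocyte genes had 13 tested, 0 past the threshold and a median of 0.11, or 0.01 without labelled knockout replicate 4. Hnf4a was at 165, 169.8, 204 and 241 FPKM in labelled knockout replicates 1 to 4, against 185, 228, 196 and 182 FPKM in WT replicates 1 to 4, which is narrower than the range of any of the 10 carriers. Klf4, a factor of mature epithelium, was at 178 FPKM in labelled knockout replicate 4, against 34.1 to 76.7 FPKM in the rest of that group and 48.1 to 86.0 FPKM in the WT libraries. The log2 fold change of Maf, known for its part in maturing enterocytes, was 0.63 (SE 0.40), Gata6 0.27 (SE 0.20) and Hnf4g 0.24 (SE 0.23), with edgeR adjusted p = 0.994. Without that library they were 0.16, 0.02 and 0.10.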

How the data were processed

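RNA of small intestinal crypts was extracted with TRIzol and made into strand-marking libraries, 4 labelled knockout and 4 WT, per the labels' protocols. The sample titles do not say how many mice stand behind each library. The submitters' processing notes list HISAT2 and DESeq2 with no version. For the counter, its strand setting, annotation and build, details were not given in the sources used here. Deposited by the authors were whole-number counts per gene and library. The deposited FPKM equal those counts over gene length and 1 factor per library, as checked on the values. The log2 fold changes and the p-values in the authors' deposited table are quoted only in the closing section. Coordinates were the same as in GENCODE M21 (GRCm38) for 99.5% of 55144 shared identifiers, the 10 carriers among them.

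The main test was that of edgeR 4.0.16 under R 4.3.3 (quasi-likelihood test with robust dispersion, TMM, filterByExpr, Benjamini-Hochberg adjustment, threshold 0.05), KO over WT by label. The SE is the log2 fold change over the square root of F, and intervals use the t distribution of that test. CPM use TMM library sizes, and log2 CPM a prior count of 2. Pair ratios used counts plus 0.5 and exact two-sided permutations. Up to 3 genes of smallest p were named per list other than marker lists. Likeness used genes with a mean log2 CPM above 3. Further genes (Anpep, Hnf4a, Klf4, Slc9a3, Slc7a5, Slc7a8, Olfm4) were named for their role after their values were seen. Some genes that these rules name are not reported here. The carriers and lists were chosen with earlier results of these data known. As alternatives, each library was left out in turn, the replicate number was used as a block, the enterocyte marker mean was a covariate, the filter was dropped or set to 5 CPM in 4 libraries, and limma-voom (limma 3.58.1), RLE scaling or DESeq2 1.42.0 was used. The fit was tested on simulated counts with 1 dispersion for every gene and no outlying library. That test does not cover the spread seen among these libraries. Libraries of 1 group differed beyond sampling noise in every pair (the smallest chi-square over its degrees of freedom was 32.25).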

Additional observations from a re-analysis of the deposited data

Results flagged for a closer look

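Among 28 groups of 4 values examined (10 carriers and 4 ratios in each group), 3 had a library far from the other 3 by Dixon's test. Chance flags about 1 in 20 independent groups. The groups here share libraries and the ratios reuse the carriers, so 3 of 28 cannot be set against that rate. Slc5a1 was at 1353 FPKM in labelled knockout replicate 4, against 325 to 451 FPKM in the other 3 libraries of that group. Slc3a1 was at 246 FPKM in the same library, against 30.6 to 60.9 FPKM in the other 3. Slc3a2 was at 57.2 FPKM in WT replicate 1, against 81.2 to 84.7 FPKM in the other 3 WT libraries. The cause of each was not tested.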

How the results depend on the processing

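No carrier passed the threshold under any alternative tried, and the lowest adjusted p of any carrier over all of them was 0.576, for Slc1a1 without labelled knockout replicate 3. Leaving out single libraries moved the log2 fold changes from -0.57 to 0.35 for Slc5a1, -0.49 to 0.39 for Slc2a2, -0.20 to 0.47 for Slc2a5, -0.18 to 0.92 for Slc15a1, -0.28 to 1.05 for Slc6a19, -0.19 to 0.65 for Slc7a9, -0.48 to 0.84 for Slc3a1, -0.51 to -0.22 for Slc1a1, -0.14 to 0.55 for Slc7a7 and 0.07 to 0.48 for Slc3a2. Ratios ran from -0.27 to 0.01 for Slc3a1 over Slc7a9, -0.01 to 0.22 for Slc3a2 over Slc7a7, -0.02 to 0.34 for Slc2a2 over Slc5a1 and 0.01 to 0.30 for Slc2a5 over Slc5a1. With the enterocyte covariate the sign turned for Slc5a1 (-0.12), Slc2a2 (-0.12) and Slc3a1 (-0.02). Over all genes, 3 were called by edgeR, 22 by DESeq2 and 5 with no filter, 2 to 3 were called with 1 library omitted, and the cause of the difference was not tested. The carriers' median spanned -0.24 to 0.52 over the fits that omit 1 library. Replicate numbers are shared by label only, and same-number deviations correlated at 0.0745, 0.0345, -0.388 and -0.0871. Labelled knockout replicate 2 and WT replicate 3 correlated at 0.316. Such correlations cannot settle whether the numbers pair the libraries, which is not known. With the replicate block edgeR called 2 genes and 0 carriers, and the carriers' median was 0.22. Without molecular identifiers, depth gives counting error only, and spread between libraries limits these comparisons.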

Other observations

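In the authors' deposited table, the log2 fold changes of the 10 carriers ran from -0.317 for Slc1a1 to 0.743 for Slc6a19, with a smallest p-value of 0.158 and adjusted p of 1 for all 10. None of the 10 is among the 670 genes of the authors' deposited heat map table.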
